A study of Drosophila melanogaster with 2 samples.

Results

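The 7 genes described here encode the cohesin complex of the fly and the proteins that load and release it: the subunits SA1, SMC1, SMC3 and vtd, the loader Nipped-B, and the regulators pds5 and wapl. They were chosen by name and not by a measured value, but with earlier results of these data known. They come from 18277 annotated genes, of which 13968 are protein-coding. The data are maps of the places where CG14667, a zinc-finger protein, sat in the genome. Whole Drosophila melanogaster embryos of 0 to 24 h, from a transgenic strain carrying CG14667 fused to eGFP, were used for chromatin immunoprecipitation with an antibody against GFP, and the labels give 2 biological replicates of this 1 group. There is no second genotype, treatment or stage, so nothing below compares conditions, and no expression was measured. Whole embryos mix all embryonic cell types, so a peak cannot be placed in one of them.

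Cohesin is a ring of SMC1, SMC3 and a kleisin, which in flies is vtd (also known as Rad21), with the stromalin SA1 bound to the kleisin. Nipped-B, with its partner Mau2, loads the ring onto chromosomes, pds5 binds to the loaded ring and regulates how long it stays, and wapl releases it. The ring holds sister chromatids together until anaphase and shapes chromatin loops, and Nipped-B and cohesin are known for their part in the regulation of developmental genes in flies.

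Of the 7 genes, SA1 and pds5 had a conservative peak at their start, and the other 5 had none. In both cases the summit, the position of highest signal in a peak, lay in the short stretch between the start of the cohesin gene and the start of a neighbour that runs the other way, and it was closer to the neighbour. The peak at pds5 was among the strongest of the series, with a signal of 707 and rank 58 of 3083, and that at SA1 had a signal of 304 and rank 338. No conservative summit lay inside any of the 7 genes. Another peak, with a weak signal of 54.3, lay 180 bp past the end of wapl, at the start of the next gene, bcn92. For SMC1, vtd and Nipped-B no candidate peak was ranked inside the gene or within 500 bp of it. This was also so for 19.7% of all protein-coding genes.

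A gene counted as bound when a conservative summit lay within 500 bp of one of its annotated starts. By that rule 2 of the 7 cohesin genes were bound, beside 12.6% of all protein-coding genes, and no test was made of a list this short, chosen by name with results known. None of the 7 had a summit inside the gene, where 8.61% of protein-coding genes did. The signal is the value that the authors' peak caller gave each peak against a control. Its scale is not stated, so it orders peaks within a list and carries no unit.

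**Figure D1:**
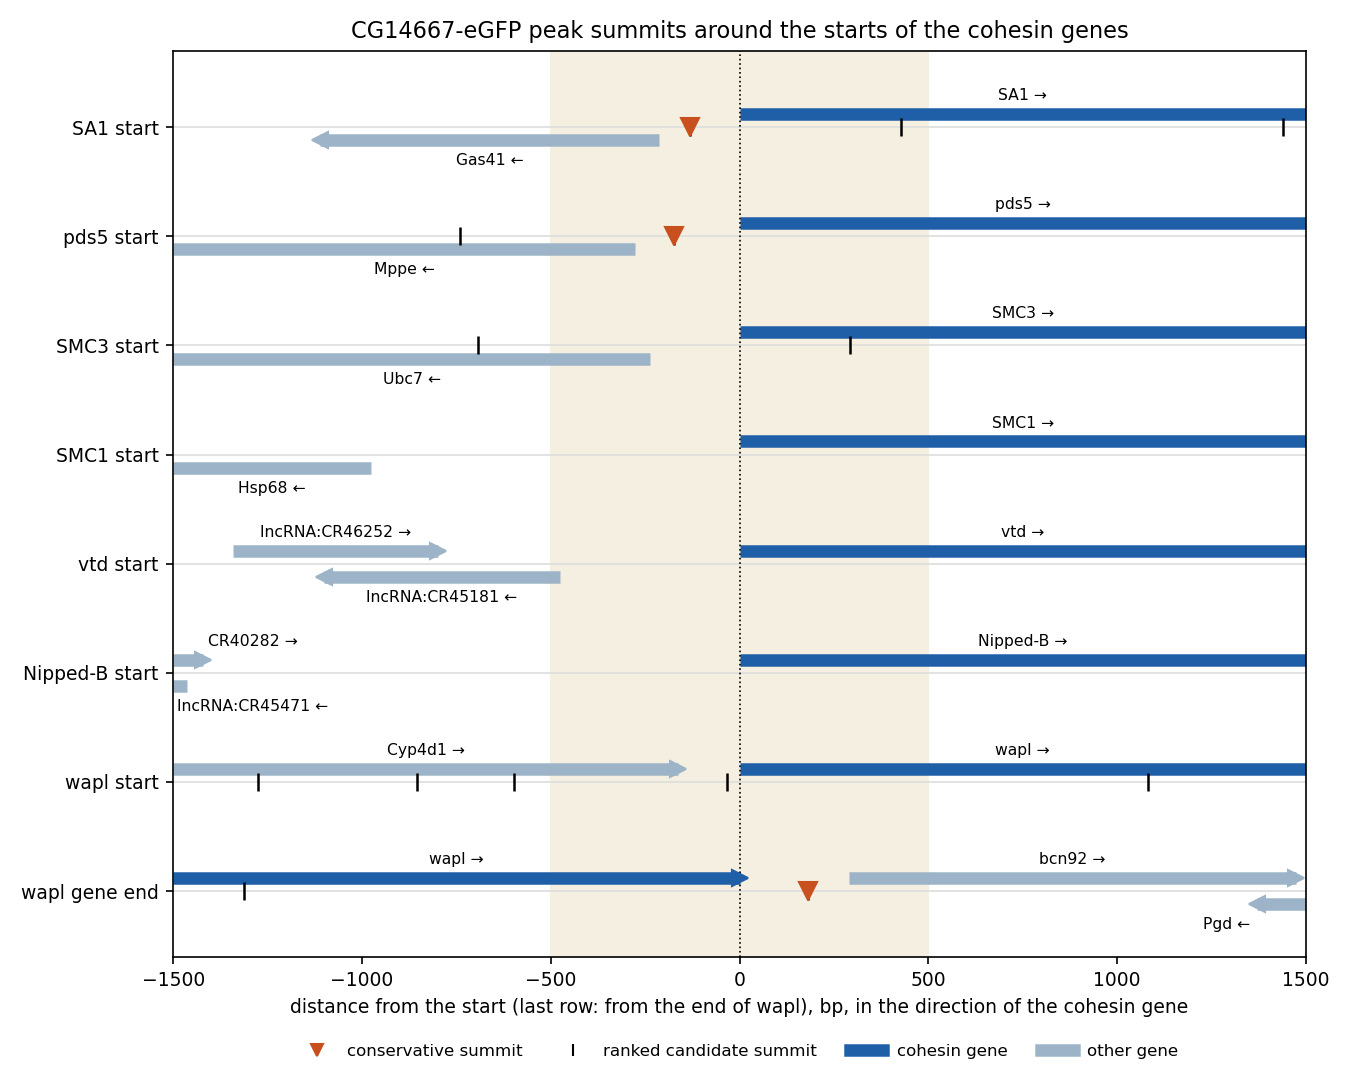
Conservative summits (orange triangles) and ranked candidate summits (black ticks) around the start of each cohesin gene, in bp along the direction of that gene, with the 500 bp on either side shaded. The last row is centred on the end of wapl instead of its start. SA1 and pds5 have a triangle between their start and that of a neighbour on the other strand, the rows of SMC1, vtd and Nipped-B hold no mark, and the triangle in the last row lies between wapl and bcn92.

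SA1 (FBgn0020616), the stromalin subunit, lies on 2L at 6950421 to 6954586 on the plus strand of dm6 and has 1 annotated start. Its neighbour Gas41 (FBgn0031873), which encodes a YEATS-domain subunit of the Tip60 chromatin complex, runs away from it on the minus strand, from 6950207. The conservative peak between them spans 6950218 to 6950384 and has its summit at 6950290, in intergenic sequence. That is 131 bp upstream of the start of SA1 and 83 bp upstream of the start of Gas41.

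The stretch between the 2 starts is printed because the summit sits in a run of A and T that few other summits match. It covers chr2L:6950208-6950420 on the plus strand of dm6, reads from Gas41 to SA1, and has the 6 matches to the homeodomain core TAATTA in capitals, some of them overlapping.
Gas41 to SA1: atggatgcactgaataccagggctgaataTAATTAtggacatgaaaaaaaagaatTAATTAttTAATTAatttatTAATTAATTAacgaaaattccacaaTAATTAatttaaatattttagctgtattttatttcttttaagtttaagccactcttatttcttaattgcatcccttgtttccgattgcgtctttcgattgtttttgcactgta
The summit is base 83 of this sequence, and bases 53 to 86 are an unbroken run of 34 A or T. Only 10 of the 3029 conservative summits on the chromosome arms have a run as long within 50 bp, which is 0.33%, and windows 300 bp to the left of the summits have one in 0.231% of cases. Within 50 bp of the summit the GC content was 12.9%, against 53.5% in windows of the same width 300 bp to either side, a difference of -40.6 percentage points, or -21.1 points with windows reaching 100 bp to each side. Over all 3029 summits the mean difference was -11.2 points (SD 13.0 across summits), and 0.231% of summits had one as low as that at SA1. The reference sequence marks 89 of the bases within 50 bp of this summit as repeat or low-complexity DNA, and the part of this in the signal was not tested. TAATTA occurred 5 times within 50 bp of the summit. It was present at least once at 10.1% of all conservative summits and in 5.08% of the windows to their left. These windows were not matched to the summits in GC content, and the part of this in these shares was not tested.

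Both replicates had this peak in their own lists. Its signal was 164 in replicate 1 (rank 344 of 2699) and 137 in replicate 2 (rank 361 of 2146). The summits of the 2 replicates were 7 bp apart. In the ranked lists of replicate 1, of replicate 2 and of both together its global IDR was 1e-05, the lowest value that the lists give. The global IDR (irreproducible discovery rate) estimates which share of the peaks down to a given rank would not repeat. In a list of a single replicate it does not measure agreement between the 2 biological replicates. The peak was narrow, with 167 bp in the conservative list, 82 bp in replicate 1 and 103 bp in replicate 2, and 10.2% of conservative peaks on the arms were no wider. Inside SA1 the ranked list of both replicates held 7 further candidates, all with summits in coding exons, signals of 2.94 to 17.8 and global IDRs of 0.652 to 0.892. The thresholded lists stop at a global IDR of 0.01, so none of these candidates entered them.

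The gene pds5 (FBgn0260012) lies on 2R at 12027985 to 12033725 on the plus strand, with 1 start, and faces Mppe (FBgn0259985), which encodes a metallophosphoesterase and starts at 12027707 on the minus strand. The peak spans 12027672 to 12027958. Its summit at 12027811 is intergenic, 174 bp upstream of the start of pds5 and 104 bp upstream of the start of Mppe. With a signal of 707 it ranked 58th of 3083 conservative peaks. Among the 1755 bound protein-coding genes, each taken with its strongest summit, pds5 ranked 65th and SA1 ranked 323rd, where the median signal was 139.

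Both replicates had the peak at pds5 in their own lists too. The signal was 385 in replicate 1 (rank 60 of 2699) and 328 in replicate 2 (rank 59 of 2146). The summits were 9 bp apart, and the global IDR was 1e-05 in the ranked list of either. The GC content at the summit was 24.8%, against 47.5% in its flanks, a difference of -22.8 points, and 18.4% of conservative summits had one as low. It was -12.9 points with windows reaching 100 bp to each side and -13.4 points with flanks 500 bp away. The reference marks 40 of the bases within 50 bp of this summit as repeat or low-complexity DNA, whose part in the signal was not tested. The letters TATAAA occurred 3 times within 50 bp of this summit. They were held by 24.1% of conservative summits, against 9.61% of the windows to their left. These windows were not matched to the summits in GC content, which was 33.2% over all conservative summits and 44.4% in their flanks. The part of this in these shares was not tested. TAATTA, which crowds the summit at SA1, did not occur within 50 bp of the summit at pds5, and TATAAA did not occur within 50 bp of that at SA1. The longest run of A and T near the summit was 14 bases, a length reached at 25.4% of summits. Inside pds5 the ranked list held 5 candidates with signals of 13.2 to 26.9 and global IDRs of 0.698 to 0.892.

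**Figure D2:**
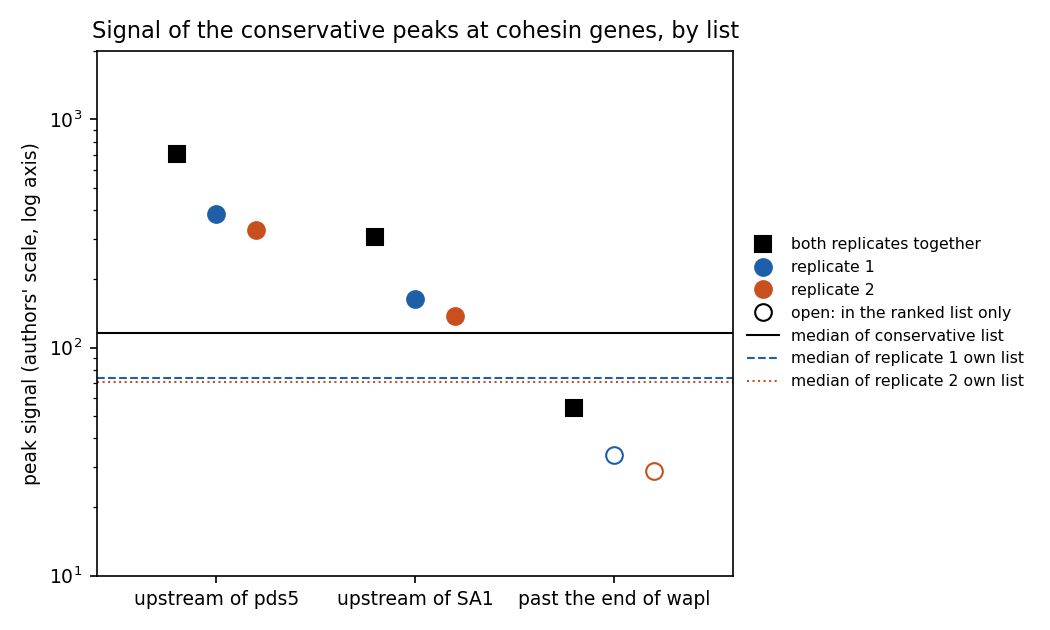
Signal of the 3 conservative peaks at or next to cohesin genes, on a log axis in the authors' scale, for both replicates together (squares) and for replicate 1 and replicate 2 apart (circles, open where the peak is only in that replicate's ranked list). Lines mark the median of each list on the chromosome arms. The peaks upstream of pds5 and SA1 lie above the median of each of the 3 lists and the one past the end of wapl lies below.

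**Figure D3:**
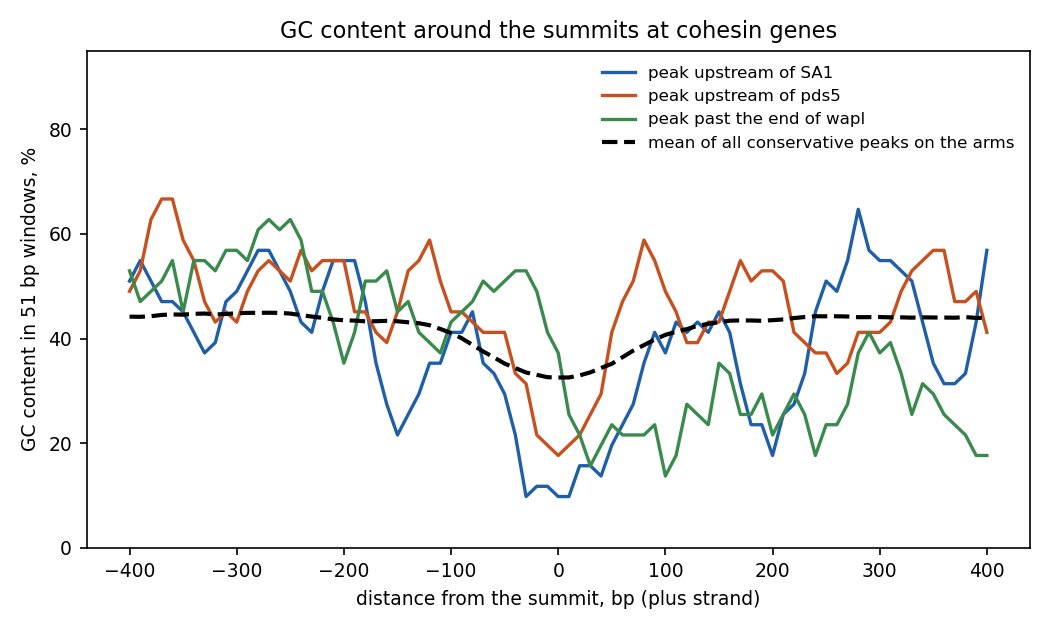
GC content in windows of 51 bp around the summits at SA1, pds5 and past the end of wapl, in percent against the distance from the summit in bp, with the mean of all 3029 conservative peaks on the chromosome arms as a dashed line. The curves of SA1 and pds5 dip at the summit below the mean curve, and the curve next to wapl falls across the summit and stays low on its right.

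In the case of wapl, the release factor, the start and the end of the gene have to be told apart. The gene (FBgn0004655) lies on X at 2149936 to 2158983 on the minus strand and has 2 annotated starts, at 2158983 and 2155902. No thresholded list put a summit within 500 bp of either start or inside the gene. The conservative peak at 2149588 to 2149923 has its summit at 2149756, in intergenic sequence 9227 bp downstream of the outer start and 180 bp past the end. The same summit is 109 bp upstream of the start of bcn92 (FBgn0013432), which follows on the same strand, so by the rule used here the peak belongs to bcn92 and not to wapl.

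This stretch is printed as the counterpart of the one at SA1, since the summit here is weak and holds no long A and T run. It covers chrX:2149648-2149935 on the plus strand of dm6, reads from the start of bcn92 to the end of wapl, and has the E-box CACGTG in capitals.
bcn92 to wapl: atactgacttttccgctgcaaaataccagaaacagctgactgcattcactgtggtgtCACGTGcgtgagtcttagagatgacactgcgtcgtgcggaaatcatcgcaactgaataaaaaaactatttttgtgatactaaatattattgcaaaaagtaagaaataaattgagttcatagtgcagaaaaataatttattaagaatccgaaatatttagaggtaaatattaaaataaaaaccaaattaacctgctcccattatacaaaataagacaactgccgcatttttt
The summit is base 109, and the E-box at bases 58 to 63 is the one match in this stretch among the 7 motifs searched. CACGTG is present within 50 bp of 0.528% of conservative summits, and this summit is not one of them. GC content was 35.6% at the summit, against 44.1% in its flanks, a difference of -8.42 points that 64.4% of conservative summits match or go below. With flanks 500 bp away it was -15.8 points. The reference marks 34 of the bases within 50 bp of this summit as repeat or low-complexity DNA.

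The peak next to wapl stood near the lower end of the conservative list. Its signal of 54.3 ranked 2981st of 3083, and its score was 847, where the list's lowest is 830. Neither replicate held it in its own thresholded list. As a candidate it had a signal of 33.7 and a global IDR of 0.0539 in replicate 1, and 28.9 and 0.0876 in replicate 2. Both are above 0.01, where the thresholded lists stop, while the ranked list of both replicates together gave 0.00909. These values are not like for like, since a list of a single replicate does not compare the replicates with each other. Within wapl the ranked list held 12 candidates with signals of 3.47 to 28.8 and global IDRs of 0.547 to 0.892. The closest to a start was 34 bp upstream of the outer one, with a signal of 2.71.

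The gene wapl also had the most conservative summits in its surroundings. Of the 7 within 25 kb of its outer start, 5 lay 21069 to 24525 bp downstream, each with the Polycomb group gene ph-p as the gene of the nearest start. Their signals were 1512, 603, 160, 118 and 66.7. Another, with a signal of 80.2, lay 7302 bp upstream in an intron of CG3630. None of these 6 was within 500 bp of wapl, so they are neighbours of the gene rather than peaks at it.

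Among the genes with no conservative peak, SMC3 has a promoter laid out like those of SA1 and pds5. SMC3 (FBgn0015615), one of the 2 long coiled-coil subunits, lies on X at 16588996 to 16593439 on the minus strand. Ubc7 (FBgn0267384), which encodes a ubiquitin-conjugating enzyme, starts 238 bp upstream on the other strand, where the gap was 214 bp at SA1 and 278 bp at pds5. The nearest conservative summit to SMC3 was 47340 bp away.

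The stretch between SMC3 and Ubc7 is shown as the promoter of the set that is head-to-head with a protein-coding gene and has no peak. It covers chrX:16593440-16593676 on the plus strand of dm6 and has the 5 matches to CGATA, the BEAF-32 element, in capitals on either strand (TATCG is the same match read from the other strand).
SMC3 to Ubc7: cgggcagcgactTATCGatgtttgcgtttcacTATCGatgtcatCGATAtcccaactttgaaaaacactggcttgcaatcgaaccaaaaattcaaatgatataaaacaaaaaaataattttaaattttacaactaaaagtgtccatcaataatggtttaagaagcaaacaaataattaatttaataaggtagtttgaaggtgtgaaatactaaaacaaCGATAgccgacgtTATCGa
It has a GC content of 31.6% and a longest A and T run of 22 bases, where the stretch between Gas41 and SA1 has 25.4% and 34 bases. TAATTA occurs 1 time in it. No ranked candidate had its summit between these starts. The closest was inside an intron of SMC3, 292 bp from the start, with a signal of 16.5 and a global IDR of 0.892, and 4 more lay in coding exons, with signals up to 24.6. In replicate 1 the nearest candidate was 730 bp upstream of the start and in replicate 2 it was 378 bp downstream. The strongest candidate of replicate 1 inside SMC3 lay in a coding exon 3446 bp from the start, with a signal of 28.0, rank 7267 of 86269 and a global IDR of 0.192, above the 0.01 at which the thresholded lists stop.

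SMC1 (FBgn0040283), the partner of SMC3 in the ring, lies on 3R at 24058287 to 24062815 on the plus strand. Upstream of it Hsp68, a heat shock protein gene, starts 977 bp away on the other strand, too far for the 500 bp used here to define a head-to-head pair. No list held a summit inside SMC1 or within 500 bp of it. The nearest conservative summit was 20505 bp upstream, with a signal of 150, in the 5' UTR of Miro, and both replicates' own lists had this peak, with 56.3 in replicate 1 and 98.9 in replicate 2. The nearest ranked candidate was 4281 bp upstream. SMC1 lay within a stretch of 16.8 kb without any ranked candidate, where neighbouring candidates are a median of 643 bp apart on the arms. Stretches of at least that length numbered 762 and made up 16.8% of the length of the arms.

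The kleisin gene vtd and the loader gene Nipped-B were the longest of the set and the emptiest. The gene vtd (FBgn0260987) lies on 3L at 27136525 to 27157999 on the plus strand, and Nipped-B (FBgn0026401) on 2R at 4691672 to 4729017 on the minus strand. Both lay whole within stretches without a ranked candidate, of 45.2 kb at vtd and 60.1 kb at Nipped-B. Stretches as long as that at Nipped-B numbered 45 over all arms and took up 3.29% of their length, and those as long as that at vtd numbered 87 and took up 4.85%. The nearest conservative summit was 130651 bp away from the start of vtd, and 57224 bp downstream of that of Nipped-B, past the other end of the gene. In replicate 2's own list a peak with a signal of 50.2 lay 27430 bp upstream of the start of vtd. In the replicates' own lists the summit nearest to the start of Nipped-B was 57245 bp downstream of it in replicate 1 and 57269 bp in replicate 2.

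Few candidates were ranked around these 2 genes in the list of both replicates together. Within 25 kb of the start there were 4 candidates at Nipped-B and 9 at vtd, where protein-coding genes had a median of 51, and 2.91% of them had as few as Nipped-B and 4.57% as few as vtd. The other 5 had 33 at SMC1, 40 at SA1, 45 at SMC3, 68 at pds5 and 75 at wapl. In the ranked list of replicate 1 Nipped-B had 16 and vtd 5, beside 22 to 44 at the other 5. In that of replicate 2 Nipped-B had 4 and vtd 7, beside 29 to 52 at the other 5. A second ranked list of both replicates gave 7 at Nipped-B and 8 at vtd. Repeat-masked sequence made up 42.6% of the 50 kb around the start at vtd and 30.0% at Nipped-B. It made up 9.06% to 16.7% at the other 5, with a median of 13.7% over protein-coding genes. The most masked of the 7 regions, those of vtd and Nipped-B, had the fewest candidates. In the list of both replicates together Nipped-B had fewer than vtd at less masking, and in replicate 1's ranked list it had more. SMC3 had more than SMC1 at more masking in both these lists, and as many in replicate 2's ranked list. The part of masking in the missing peaks was not tested. No conservative peak was found at vtd and Nipped-B, and few candidates lay in these regions in the ranked list of both replicates. In replicate 1's ranked list Nipped-B had more, with 16. Whether the missing peaks are linked to the few candidates was not tested.

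**Figure D4:**
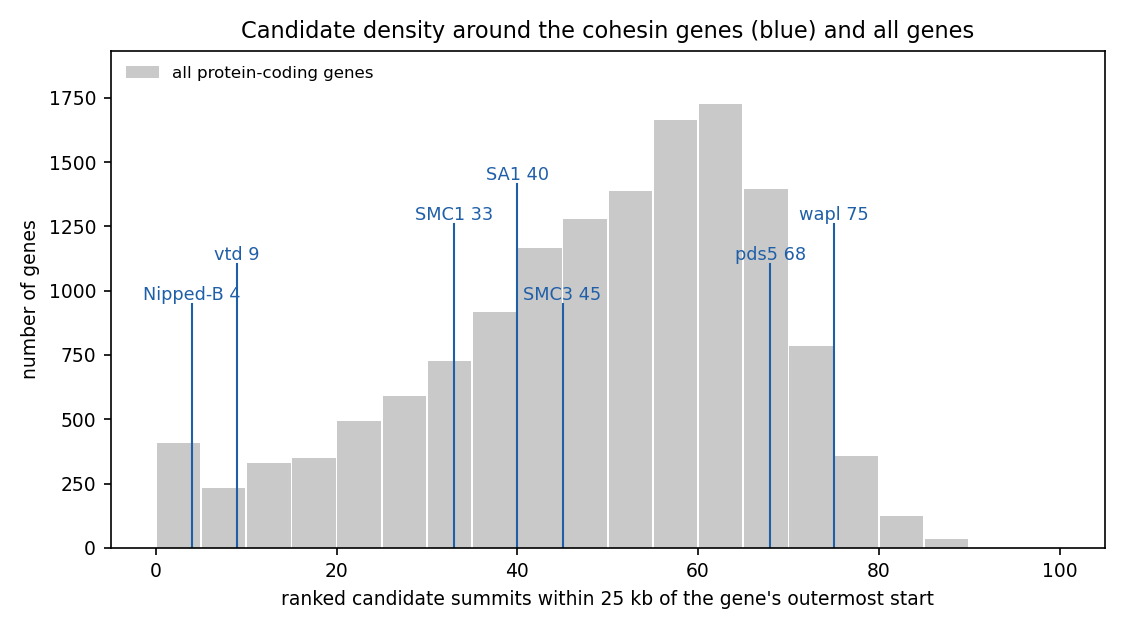
Number of ranked candidate summits within 25 kb of the outermost start, for each cohesin gene (blue lines, labelled with the number) over the distribution for all protein-coding genes (grey bars, number of genes in bins of 5 candidates). Nipped-B with 4 and vtd with 9 sit at the left end and pds5 with 68 and wapl with 75 at the right.

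**Figure D5:**
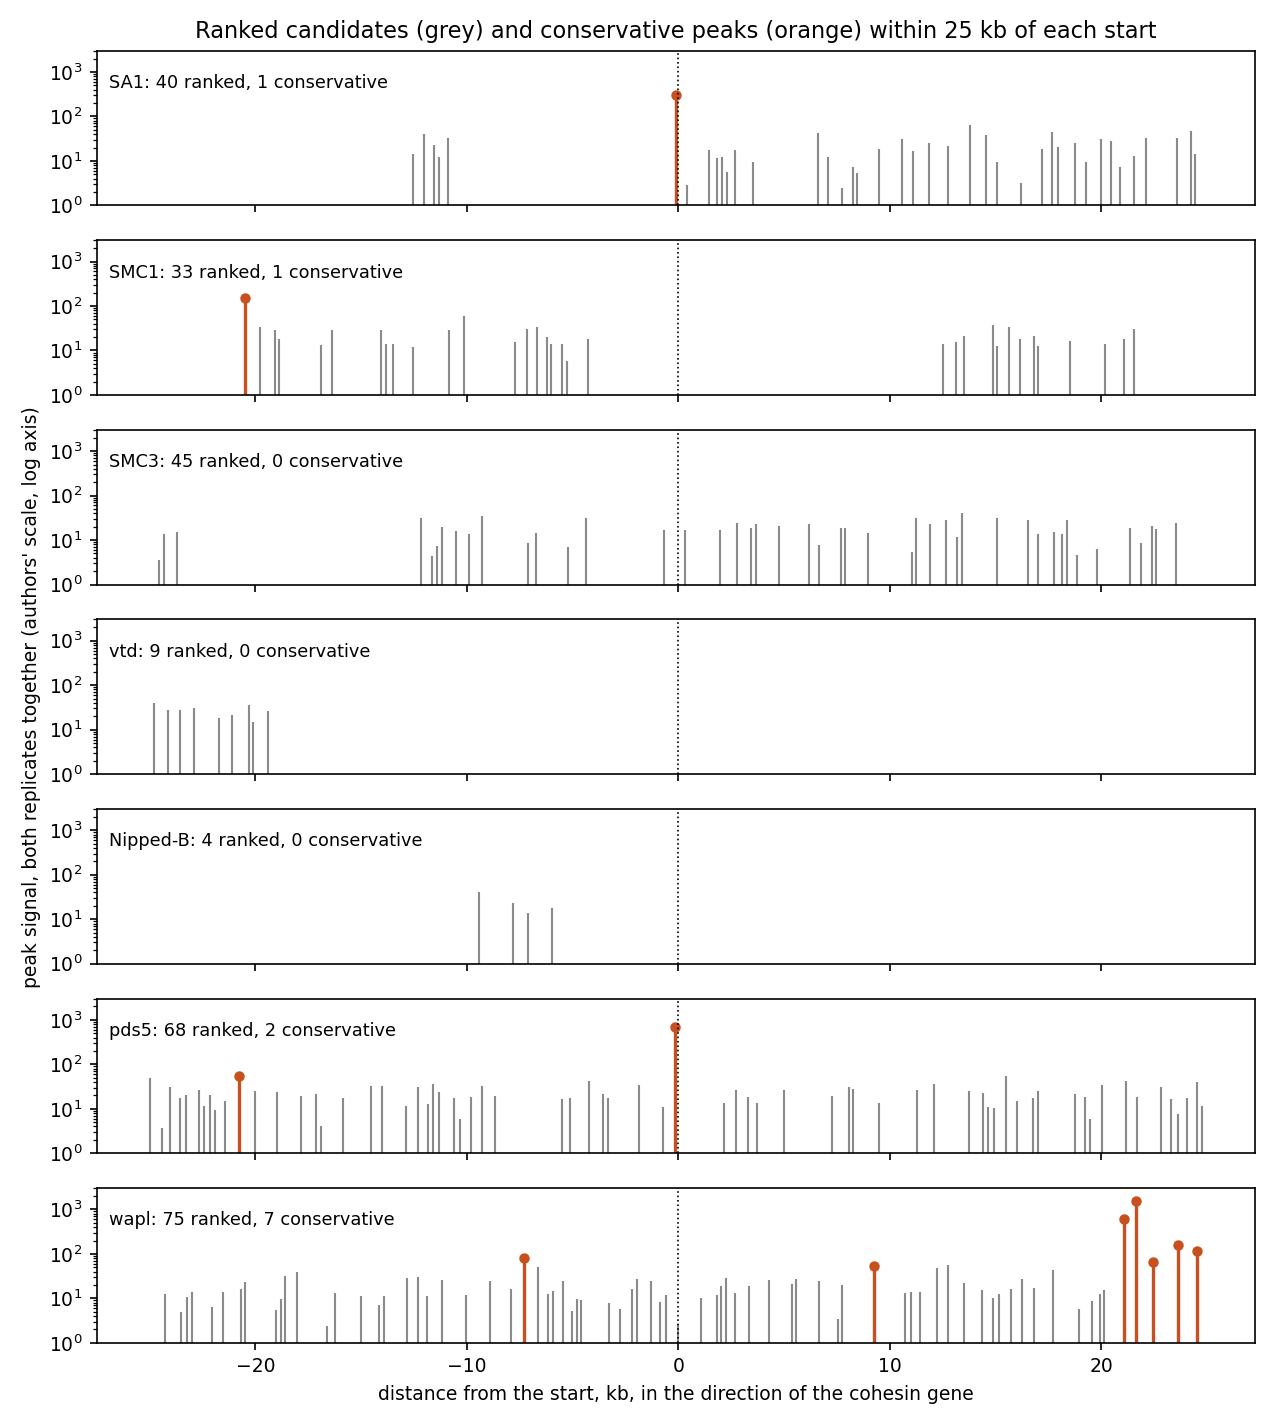
Signal on a log axis, in the authors' scale for both replicates together, of every ranked candidate (grey) and conservative peak (orange) within 25 kb of the start of each cohesin gene, in kb along the direction of the gene. The orange peaks at the start itself are those of SA1 and pds5, SMC1 sits in a gap without candidates, and vtd and Nipped-B have 9 and 4 candidates, none in the gene.

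Counted over the set, 4 of the 7 genes (SA1, pds5, SMC3 and wapl) had a ranked candidate within 500 bp of a start, beside 65.9% of protein-coding genes. Another 3 had none inside the gene or within 500 bp of it, beside 19.7% of protein-coding genes. That share differed with gene length. It was 18.2% for genes of 4 to 6 kb, the class of SMC1, and 3.63% for genes of 20 kb or more, the class of vtd and Nipped-B. In replicate 1's own list 2 of the 7 were bound, SA1 and pds5, beside 11.4% of protein-coding genes, and in replicate 2's own list the same genes were bound, beside 9.62%.

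Both peaks at starts lay in head-to-head promoters. SA1, pds5 and SMC3 have a protein-coding start on the other strand within 500 bp upstream. Of these 3, 2 were bound, while 0 of the other 4 were. Among those 4, vtd has a noncoding start on the other strand, that of lncRNA:CR45181, 476 bp upstream. A protein-coding head-to-head neighbour was present at 3815 of the 13968 protein-coding genes. Protein-coding genes with such a neighbour were bound in 25.8% of cases and those without in 7.6%. A peak between 2 such starts cannot be given to 1 gene by position alone. When a peak counted for its closest start alone, Gas41 and Mppe took the peaks and 0 of the 7 cohesin genes remained bound, beside 8.93% of protein-coding genes. Sharing is common among bound genes, since 63.7% of the 1755 shared the summit with a start of another gene in the same distance.

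The letters of core promoter elements were found at genes with and without a peak. The promoter was taken as the 250 bases before and 50 after a start. CGATA occurred in at least 1 promoter of 6 of the 7 genes, pds5 being the exception. It did not occur at the inner start of wapl. Of the promoters at 19276 protein-coding starts 45.6% held it, a share counted per start and not per gene. Matches numbered 6 at SMC3, 5 at the outer start of wapl, 4 at SMC1, 3 at vtd and 2 each at SA1 and Nipped-B. TATCGATA, the DRE bound by DREF, which counts as 2 matches to CGATA, occurred in the promoters of SA1, vtd and wapl (outer start), and in 7.98% of all promoters. TAATTA occurred in those of SA1, with 6 matches, and SMC3, with 1, and in 18.8% of all. TATAAA, the TATA element, occurred in those of pds5, with 3 matches, and of SMC1, SMC3 and vtd, with 1 each, and in 42.2% of all. GGTCACAC, from the motif bound by M1BP, was found at the outer start of wapl, and in 6.71% of all promoters. GAGAG, the GAGA factor element, had 7 matches at the inner start of wapl and 1 each at its outer start, pds5 and Nipped-B. At least 1 match was held by 33.1% of all promoters. Such matches describe letters in these windows and not binding.

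Other genes of the cohesin cycle and of the related SMC complexes, condensin and SMC5/6, were taken from lists written by symbol. Of 13 other cohesion genes 2 were bound, Mau2 and mei-S332, of 7 condensin genes 3, SMC2, Cap-D2 and Cap-H2, and of 5 genes of the SMC5/6 complex 1, SMC6. In all this is 6 of 25, where 12.6% of all protein-coding genes were bound. That share is not a like-for-like reference, because these lists are richer in head-to-head genes. Every one of the 6 has a head-to-head neighbour within 500 bp and shares its peak with it. Head-to-head neighbours were present at 15 of the 25, beside 3815 of the 13968 protein-coding genes. Of these 15, 6 were bound, beside 25.8% of protein-coding genes with such a neighbour. Of the related genes without one 0 were bound, beside 7.6%. Whether the related genes were bound more often than such classes predict was not tested.

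Mau2 (FBgn0038300) encodes the partner of Nipped-B in the loader. Its peak lay on 3R at 15208958 to 15209293, with the summit 78 bp upstream of the start of Mau2 and 364 bp from that of the serpin gene Spn88Eb. The signal was 209 for both replicates together, with 77.6 in replicate 1 and 131 in replicate 2. The loader thus had a peak at the start of the gene for Mau2 and none at that for Nipped-B. The gene mei-S332, the fly shugoshin that protects centromeric cohesion, had an intronic summit, 273 bp upstream of a start of its own and 77 bp from a start of Vrp1, which encodes verprolin. Its signal was 99.2, and the peak was in the own list of replicate 2 (68.6) but not in that of replicate 1.

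In condensin the peak at SMC2, which encodes a core ATPase subunit, had a signal of 238 and lay 107 bp upstream of the start, shared with the DNA repair gene Ercc1. At Cap-D2 it had 112 and was shared with Bub3, a spindle checkpoint gene, and at Cap-H2 it had 161 and was shared with MED7, a Mediator gene. The summit at Cap-H2 lay 72 bp from the start of MED7 and 206 bp from that of Cap-H2. SMC6 had a signal of 304, close to that of SA1, at 157 bp upstream of the start, with 148 in replicate 1 and 156 in replicate 2, and shared the peak with CG6204. Genes without a peak included eco, which encodes the acetyltransferase of SMC3, Sse, which encodes separase, pim, the securin gene, and glu, which encodes SMC4. The nearest conservative summit to a start over the 25 genes was a median of 14956 bp away.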

How the data were processed

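Per the labels' descriptions, chromatin of 2 biological replicates was sonicated to fragments of 200 to 800 bp before the anti-GFP precipitation. Per the file headers and listings, the authors called peaks on filtered alignments against a control on dm6; the sources used here name neither aligner nor caller. Reads were not used, so depth is unknown. The deposited lists give per peak a signal, an IDR score (830 to 1000 in the conservative list), −log10 of a q value, a summit offset and, where ranked, the global IDR as −log10, all values of the authors. Series lists combine both replicates. In each of the 4 ranked lists 8 per-replicate columns carry no label of a sample and were left out. Each replicate's values come from its own 2 lists.

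Summits were joined to 24111 gene and start pairs of Ensembl release 115 on the chromosome arms (transposable elements left out), 1-based on dm6, with Python 3.11.15 and pandas 2.3.3. Functions were tested on simulated data. Motifs were searched on both strands of RefSeq sequence. The members and lists were chosen with earlier results of these data known, candidate-free stretches and A and T runs were added after seeing the data, and no significance test was run: there is 1 group, and members are not replicates. Named were the 7 genes, genes sharing their peaks, and related genes with a peak; others were named after their values were seen.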

Additional observations from a re-analysis of the deposited data

How the results depend on the processing

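The count of 2 bound cohesin genes, SA1 and pds5 each time, was the same in the other thresholded list, in each replicate's own list, at a global IDR of 0.001 or less, within 250 bp, within 1000 bp and with 1 start per gene. It became 0 when a peak counted for its closest start alone, because Gas41 and Mppe start closer to the summits. Several of the other settings could not have removed SA1 or pds5. Their peaks have a global IDR of 1e-05 and summits 131 and 174 bp from the start, and each gene has 1 annotated start. No summit lay inside any of the 7 in the other thresholded list, in either replicate's own list or at a global IDR of 0.001 or less, while the ranked list, which has no threshold, held candidates inside SA1, SMC3, pds5 and wapl. Without replicate 1 or without replicate 2 the count stayed at 2, inside genes at 0, and that of related genes was 5 to 6 of 25, the missing one being mei-S332. The share of protein-coding genes was 9.62% to 11.4% in the replicates' own lists and 8.33% at a global IDR of 0.001 or less, which leaves 1659 peaks. Of the 3 conservative peaks described, 2 were in both replicates' own lists; with 50% reciprocal overlap it was 1, since replicate 1's peak at SA1 covers 49.1% of the conservative one. The GC differences kept their sign in every window tried and moved most at SA1, to -21.1 points with 100 bp to each side, at pds5, to -12.9, and at wapl, to -15.8 with flanks 500 bp away. No paired analysis was possible because there is 1 group and no comparison between groups. The depth of the libraries is unknown, so how many weak peaks were missed at these genes cannot be given.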
